A study of Mus musculus with 10 samples.

Results

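Collagens are the trimeric proteins that form the fibrils, networks and anchoring structures of the extracellular matrix, and 44 collagen genes were described here, chosen as the rows of the deposited expression table whose symbol is "Col", a number, "a" and a number. They are 44 of 24525 genes in that table. The libraries came from the colon of male mice in a model of colitis-associated colorectal cancer. Mice of 7 weeks received the mutagen azoxymethane (AOM) once at 12.5 mg/kg. They then went through 3 rounds of drinking water with 2% dextran sulfate sodium (DSS), an agent that damages the gut lining, with 5 days on DSS and 16 days off it in each round. RNA of 5 tumours was compared with RNA of 5 samples of adjacent colon, both 10 weeks after AOM. Both groups therefore come from mice given AOM and DSS, and no library from the 3 untreated mice of the study was analysed here. The strain is given as C57BL/6N in the growth protocol and as C57BL/6 in the sample labels. The series text calls the adjacent tissue matched and the titles number both groups 1 to 5. The source labels of all 10 libraries name the same mouse, however, although 12 mice were treated. It stays unclear from the labels how many animals the libraries represent. The p-values therefore describe only the spread among these samples, part of which may be technical.

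Each collagen chain is built of short repeats that begin with glycine, and 3 chains wind into a triple helix. The fibrillar collagens (types I, II, III, V, XI, XXIV and XXVII) build the tension-bearing fibrils of connective tissue, where type V starts fibril assembly. Type IV forms the sheet of basement membranes, type VI forms beaded filaments that link cells to fibrils, and the FACITs (fibril-associated collagens with interrupted triple helices) sit on the surface of fibrils. Type VII anchors the epithelial basement membrane to the stroma, the multiplexins XV and XVIII belong to basement membrane zones, and types XIII, XVII, XXIII and XXV span the cell membrane. In the intestine most fibrillar collagen is made by fibroblasts, with contributions from smooth muscle and other stromal cells. In bulk tissue, more cells of a type and more RNA per cell cannot be told apart.

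The type IV genes lie in 3 head-to-head pairs. Promoter windows are shown for Col4a1 and Col4a2, the abundant pair, and for Col4a5 and Col4a6, the pair on the X chromosome, since these 2 pairs differed in the comparison below. Those of Col1a2 and Col3a1, which belong to the most abundant fibrillar genes, are set beside them. Each window runs from 250 bases before to 50 bases after the start annotated by RefSeq on GRCm38.p6. Capitals mark the CCAAT box (CCAAT or its reverse complement ATTGG), the TATA box (TATAAA or TTTATA) and the GC box (GGGCGG or CCGCCC), all searched on both strands. The windows are Col1a2 at chr6:4505368-4505667 (plus strand), Col3a1 at chr1:45311288-45311587 (plus), Col4a1 at chr8:11312777-11313076 (minus), Col4a2 at chr8:11312555-11312854 (plus), Col4a5 at chrX:141475169-141475468 (plus) and Col4a6 at chrX:141474027-141474326 (minus).
Col1a2: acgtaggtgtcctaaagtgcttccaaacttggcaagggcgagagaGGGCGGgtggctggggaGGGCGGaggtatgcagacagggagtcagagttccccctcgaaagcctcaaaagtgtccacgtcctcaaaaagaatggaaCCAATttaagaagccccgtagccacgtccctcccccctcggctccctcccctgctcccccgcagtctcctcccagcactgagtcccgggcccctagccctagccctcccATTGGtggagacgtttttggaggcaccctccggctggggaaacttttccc
Col3a1: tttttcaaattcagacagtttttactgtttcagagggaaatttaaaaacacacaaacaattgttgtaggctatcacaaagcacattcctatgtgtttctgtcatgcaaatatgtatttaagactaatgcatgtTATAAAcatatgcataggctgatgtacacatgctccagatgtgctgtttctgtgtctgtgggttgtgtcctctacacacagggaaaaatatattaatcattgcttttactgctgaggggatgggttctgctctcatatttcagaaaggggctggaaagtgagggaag
Col4a1: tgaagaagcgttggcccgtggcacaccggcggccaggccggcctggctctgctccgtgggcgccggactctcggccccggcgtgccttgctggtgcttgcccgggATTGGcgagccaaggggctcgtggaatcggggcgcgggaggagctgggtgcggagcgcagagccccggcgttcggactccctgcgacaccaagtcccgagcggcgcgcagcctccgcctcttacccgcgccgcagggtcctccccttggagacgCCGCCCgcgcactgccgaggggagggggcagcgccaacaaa
Col4a2: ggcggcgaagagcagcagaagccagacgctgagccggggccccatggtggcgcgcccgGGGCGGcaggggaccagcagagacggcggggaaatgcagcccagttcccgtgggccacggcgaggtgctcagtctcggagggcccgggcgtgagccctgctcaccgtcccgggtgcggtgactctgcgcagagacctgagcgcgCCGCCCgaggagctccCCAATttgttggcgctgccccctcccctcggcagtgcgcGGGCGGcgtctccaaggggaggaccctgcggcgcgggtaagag
Col4a5: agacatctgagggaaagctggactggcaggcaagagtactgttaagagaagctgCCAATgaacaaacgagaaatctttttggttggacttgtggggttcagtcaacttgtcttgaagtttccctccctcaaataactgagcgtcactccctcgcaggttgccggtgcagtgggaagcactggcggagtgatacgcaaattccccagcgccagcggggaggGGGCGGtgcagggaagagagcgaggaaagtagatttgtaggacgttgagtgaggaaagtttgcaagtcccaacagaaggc
Col4a6: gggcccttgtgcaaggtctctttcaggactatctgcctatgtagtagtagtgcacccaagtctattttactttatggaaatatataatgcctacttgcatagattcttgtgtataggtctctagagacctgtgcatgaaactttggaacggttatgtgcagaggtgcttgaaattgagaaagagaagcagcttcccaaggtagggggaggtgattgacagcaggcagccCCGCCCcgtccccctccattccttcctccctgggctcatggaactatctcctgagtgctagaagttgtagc

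Counted from the starts used for the windows, the transcripts of Col4a1 and Col4a2 overlap by 22 bases, so the 2 windows above share sequence. The starts used for the windows of Col4a6 and Col4a5 lie 1342 bases apart. For Col4a4 and Col4a3 the whole annotated gene spans were compared instead, and these overlap by 114 bases. Of the 44 collagen genes, 35 had a window in the table, and 9, Col1a1 among them, had none. A GC box was found in 22 of these 35 genes (62.9%), against 38.2% of all 27025 genes with a window. It was held by 13 of the 18 that rose in tumours and by 9 of the other 17. A CCAAT box was found in 13 of the 35 (37.1%), against 41.1% of all genes, and a TATA box in 5 (14.3%), against 15.7%. These are matches of letters, with no measurement of binding.

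Collagen transcripts were several times more abundant in tumours. The summed level of the 44 genes was 1211, 1506, 1056, 1297 and 1041 FPKM (fragments counted per gene, scaled by transcript length and by the size of the library) in tumours 1 to 5, against 318, 157, 302, 128 and 279 FPKM in adjacent samples 1 to 5. The lowest tumour was more than 3 times the highest adjacent sample, and the ratio of the group means was 5.17. Collagens made up 0.22% to 0.322% of the total FPKM of tumours and 0.027% to 0.066% of that of adjacent samples.

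**Figure D1:**
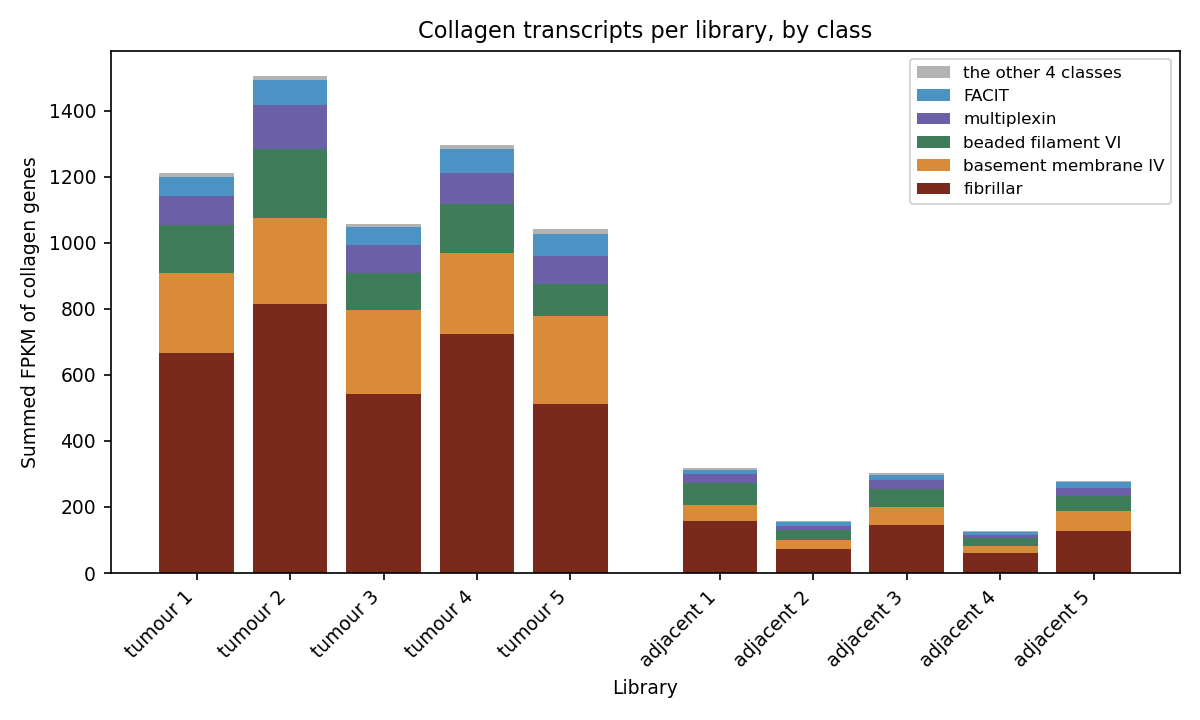
Summed FPKM of the 44 collagen genes (vertical axis) in each library (horizontal axis, 5 tumours then 5 adjacent samples), stacked by class. Each tumour bar reaches at least 1041 FPKM and each adjacent bar at most 318 FPKM, and adjacent samples 2 and 4 have the lowest bars.

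Of the 44 genes, 23 rose in tumours, 2 passed the filter on low levels without passing the test, and 19 were below the filter. None fell, and none had a lower level in tumours at an unadjusted p under 0.05, with or without the filter. The filter kept 13016 genes averaging 1 FPKM or more over the 10 libraries. These were tested with limma on log2(FPKM + 1), with p-values adjusted by the Benjamini-Hochberg method and a threshold of 0.05. In the same fit 57.2% of all tested genes were called higher in tumours and 19.3% lower. The filter uses the mean of all libraries, and 5 of the 25 tested collagens averaged under 1 FPKM in adjacent tissue. These were Col7a1, Col13a1, Col14a1, Col23a1 and Col27a1, all counted among the 23. They passed the filter through their tumour level, so it favoured a rise in them. Some tested genes of the lists below also averaged under 1 FPKM in adjacent tissue, Dmp1, Adamts2 and Krt6a among them. The median log2 change of the 25 tested collagens was 1.94, against 0.35 over all tested genes. With the median of each library subtracted, 22 collagens rose, none fell, and their median was 1.60; under this scaling 34.5% of all genes were called higher. A log2 change of at least 2 was seen in 12 of the 25, against 2.49% of all tested genes. In 23 of the 25 every tumour lay above every adjacent sample, which held for 46.5% of all tested genes. Of the 19 collagens below the filter, the groups did not overlap in 6, all higher in tumours, and overlapped in 13. Among the 6717 genes below the filter but above 0 in some library, 18 of these collagens included, 12.3% had every tumour above every adjacent sample.

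**Figure D2:**
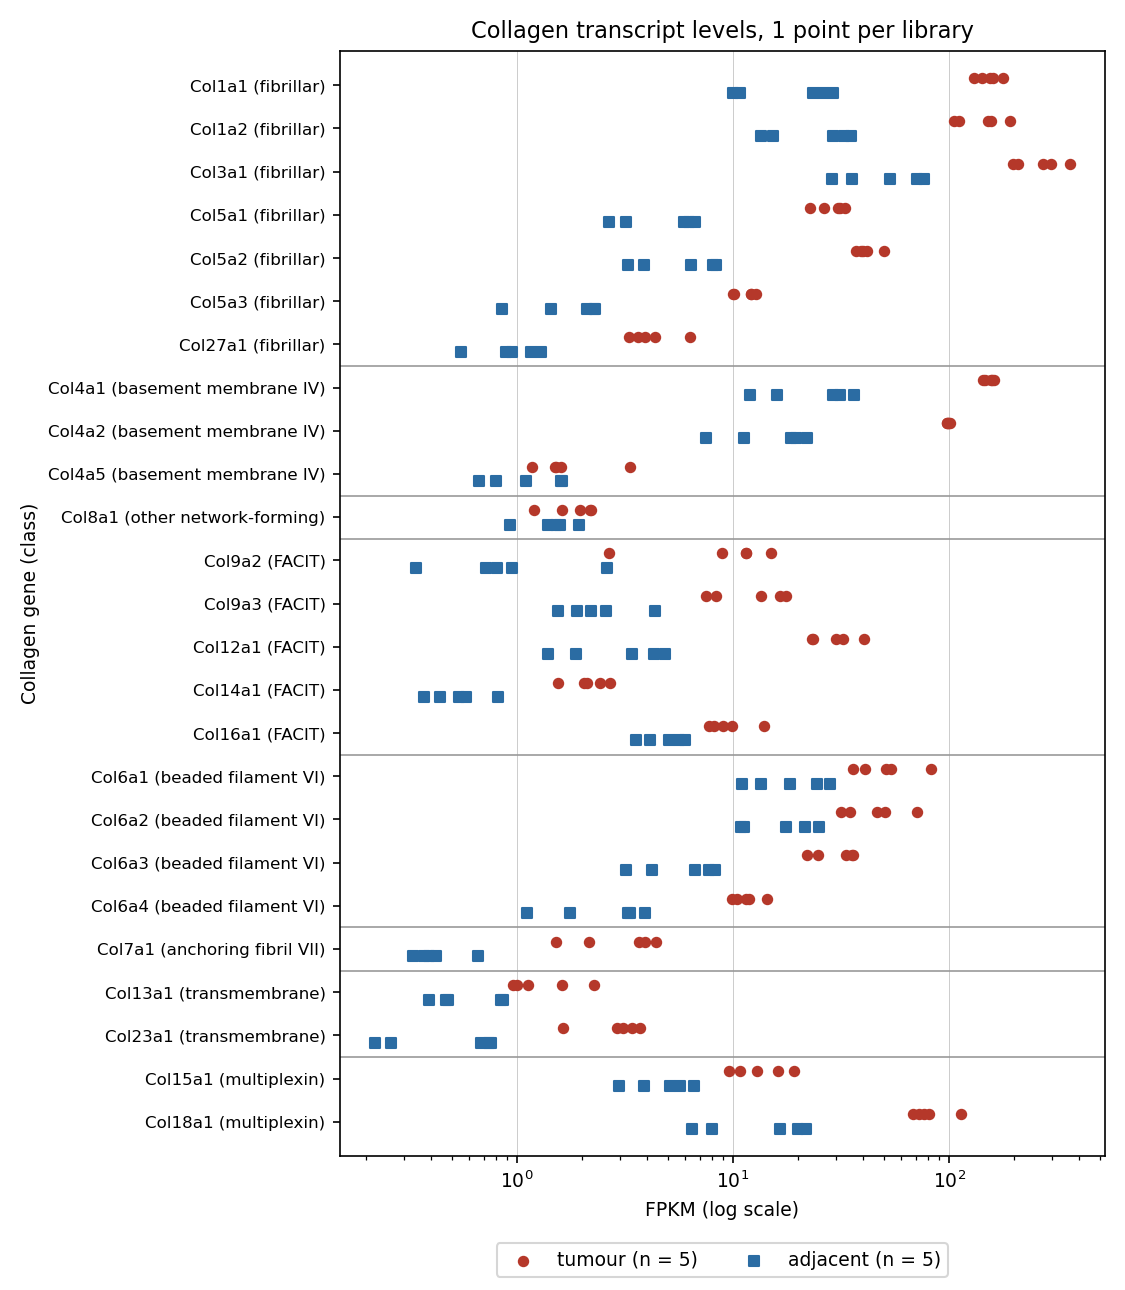
FPKM on a log scale (horizontal axis) of the 25 tested collagens (vertical axis, grouped by class), with 1 point per library, tumours as circles and adjacent samples as squares. The 2 groups overlap in Col4a5 and Col8a1 and are separate in the other 23.

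The fibrillar genes held the largest share of collagen transcripts in every library, 49.3% to 55.8% in tumours and 45.6% to 49.3% in adjacent samples. Col3a1, the chain of type III collagen, was the most abundant, at 273, 363, 207, 297 and 198 FPKM in tumours 1 to 5, against 76.2, 35.4, 70.9, 28.7 and 53.4 FPKM in adjacent samples 1 to 5. Tumour 2 was highest and adjacent sample 4 lowest, and the lowest tumour had more than 2 times the level of the highest adjacent sample. Col3a1 averaged 268 ± 67.6 FPKM in tumours and 52.9 ± 21.0 FPKM in adjacent samples (SD, n = 5 each). On the log2 scale it rose by 2.38 (SE 0.28; limma adjusted p = 4.74e-05).

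Col1a1, the chain that supplies most of type I collagen, was at 155, 160, 142, 177 and 131 FPKM in tumours 1 to 5, against 26.2, 10.8, 23.5, 9.99 and 28.9 FPKM in adjacent samples 1 to 5. It rose by 3.00 (SE 0.28; limma adjusted p = 2.13e-05), the largest change among the 25 tested collagens in this fit. With 0.1 FPKM added in place of 1, Col12a1 (3.31) and Col9a2 (3.14) rose more than Col1a1 (3.07). Col1a2, its partner chain, was at 152, 191, 111, 156 and 105 FPKM in tumours 1 to 5, against 35.3, 15.3, 32.5, 13.5 and 29.0 FPKM in adjacent samples 1 to 5. Col1a2 rose by 2.53 (SE 0.29; limma adjusted p = 3.79e-05). In both genes adjacent samples 2 and 4 lay well below the other 3 adjacent samples.

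The 3 type V genes rose to similar degrees. Col5a2 averaged 41.5 ± 5.10 FPKM in tumours and 5.99 ± 2.33 FPKM in adjacent samples (SD, n = 5 each), a log2 change of 2.67 (SE 0.22). Col5a1 averaged 28.7 ± 4.20 FPKM in tumours and 4.93 ± 1.86 FPKM in adjacent samples, a change of 2.38 (SE 0.22). Col5a3 was at 9.97 to 12.8 FPKM in tumours and 0.85 to 2.30 FPKM in adjacent samples, a change of 2.18 (SE 0.16). Col27a1, a fibrillar collagen best known from cartilage, rose by 1.42 (SE 0.16), with 3.29 to 6.30 FPKM in tumours and 0.55 to 1.29 FPKM in adjacent samples.

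The other 4 fibrillar genes were below the filter. Col11a2 was at 0.68 to 0.98 FPKM in tumours and 0.27 to 0.45 FPKM in adjacent samples, and Col24a1 at 0.55 to 0.90 FPKM in tumours and 0.07 to 0.24 FPKM in adjacent samples. Col2a1, the main fibrillar chain of cartilage, reached at most 0.25 FPKM in tumours and 0.04 FPKM in adjacent samples. Col11a1 reached at most 0.03 FPKM in tumours and 0.01 FPKM in adjacent samples, close to the 0.01 FPKM to which the table is rounded. Without the filter, 29 of the 43 collagens above 0 rose, Col11a2, Col24a1 and Col2a1 among them, where 44.5% of 19733 genes were called higher in tumours.

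Type IV collagen divided by gene pair. Col4a1, which with Col4a2 makes the trimer found in nearly all basement membranes, was at 143, 158, 156, 147 and 162 FPKM in tumours 1 to 5, against 29.1, 16.1, 31.2, 12.0 and 36.2 FPKM in adjacent samples 1 to 5. Col4a2 was at 97.5, 100.2, 98.4, 97.3 and 100.5 FPKM in tumours 1 to 5, against 18.6, 11.2, 19.6, 7.49 and 22.0 FPKM in adjacent samples 1 to 5. The 5 tumours were almost level in Col4a2, with a SD of 1.49 FPKM, while adjacent samples differed by nearly 3-fold. Col4a1 rose by 2.68 (SE 0.26; limma adjusted p = 2.28e-05) and Col4a2 by 2.66 (SE 0.24; limma adjusted p = 1.9e-05).

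Col4a5, of the pair on the X chromosome, encodes a chain of other type IV networks and did not pass. It was at 1.59, 3.35, 1.5, 1.52 and 1.17 FPKM in tumours 1 to 5, against 1.62, 0.80, 1.59, 0.67 and 1.10 FPKM in adjacent samples 1 to 5. The groups overlapped, and tumour 2 stood above all other libraries. The difference was 0.37 on the log2 scale (SE 0.20; limma adjusted p = 0.118), and it was 0.04 after subtracting medians and -0.07 after quantile normalization. Its partner Col4a6 was below the filter, at 0.21, 0.65, 0.12, 0.26 and 0.10 FPKM in tumours 1 to 5, against 0.54, 0.30, 0.52, 0.29 and 0.36 FPKM in adjacent samples 1 to 5. Tumour 2 was again the highest library, and the other 4 tumours lay below every adjacent sample. Smooth muscle is known to make these chains, and the 8 smooth muscle and pericyte markers summed to 223 FPKM in tumour 2, 151 to 237 FPKM in the other tumours and 48.4 to 131 FPKM in adjacent samples. Their part in the level of tumour 2 was not tested. Col4a3 and Col4a4, known from kidney and lung basement membranes, reached at most 0.13 and 0.07 FPKM in tumours and 0.12 and 0.02 FPKM in adjacent samples.

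**Figure D3:**
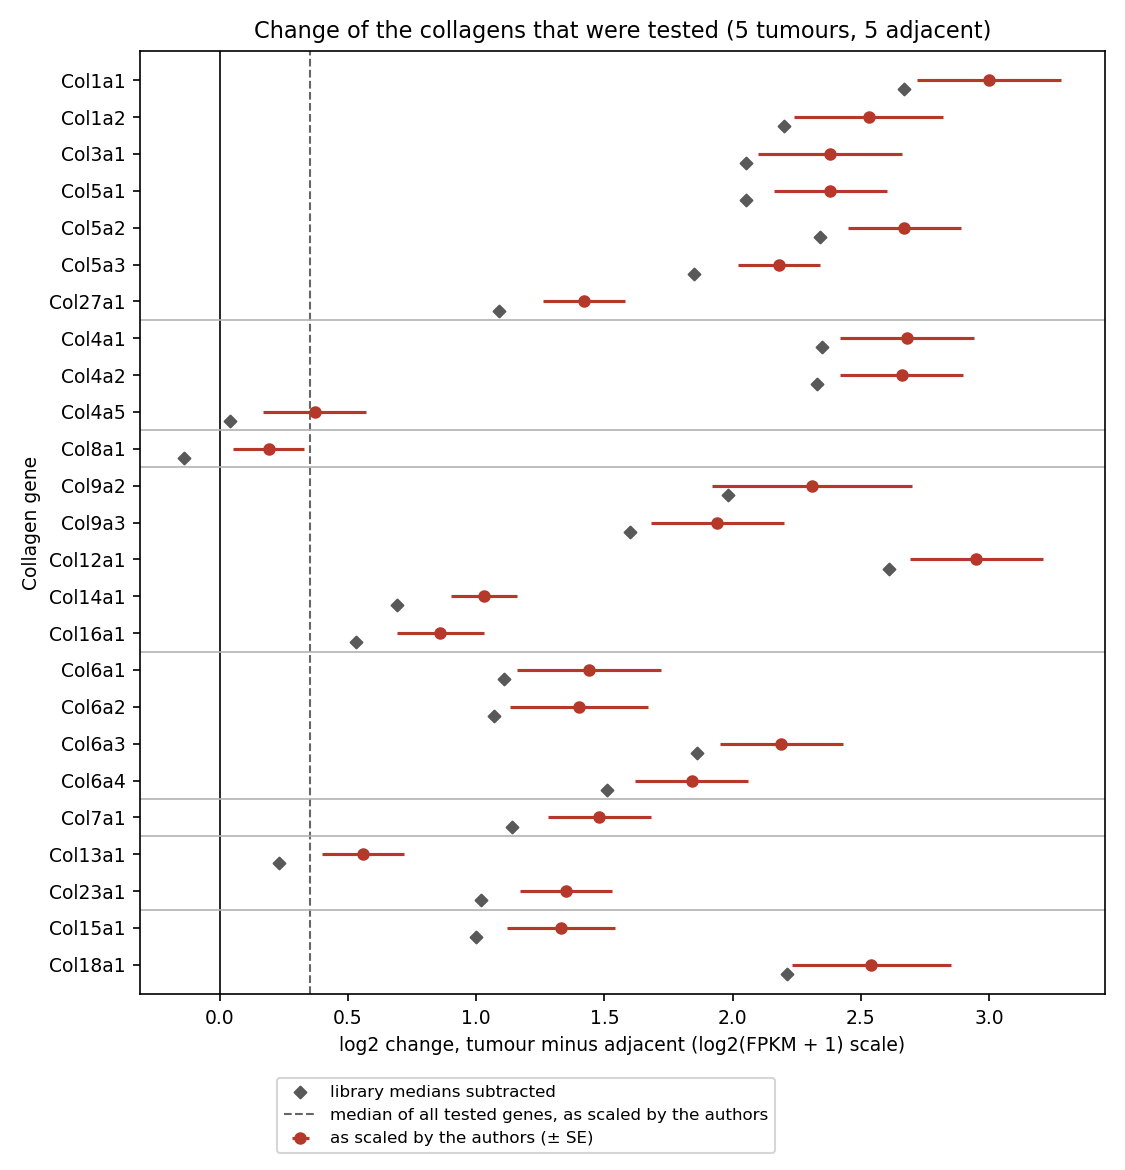
Difference between the group means of log2(FPKM + 1), with positive values higher in tumours (horizontal axis), for the 25 tested collagens (vertical axis, in the class order of the plot of levels), as circles with SE bars and as diamonds with library medians subtracted. The dashed line is the median of all tested genes, 0.35. Col4a5 and Col8a1 lie near it and Col13a1 little above it, while Col1a1 lies at 3.00.

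Of the other network-forming genes, Col8a1, known from blood vessel walls, did not pass. Its level was 2.17, 1.2, 1.95, 2.19 and 1.62 FPKM in tumours 1 to 5, against 1.94, 0.93, 1.58, 1.39 and 1.52 FPKM in adjacent samples 1 to 5. The groups overlapped, and the difference was 0.19 (SE 0.14; limma adjusted p = 0.237), but -0.14 with medians subtracted and -0.27 with quantile normalization. Col10a1, a gene of hypertrophic cartilage, was below the filter at 0.11 to 0.51 FPKM in tumours and 0.00 to 0.04 FPKM in adjacent samples. Col8a2 was at 0.08 to 0.37 FPKM in tumours and 0.01 to 0.09 FPKM in adjacent samples.

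Among the FACITs, Col12a1, whose protein coats type I fibrils, was at 23.5, 40.5, 23.3, 30.0 and 32.3 FPKM in tumours 1 to 5, against 3.41, 1.87, 4.85, 1.39 and 4.30 FPKM in adjacent samples 1 to 5. Every tumour had more than 4 times the level of the highest adjacent sample, and Col12a1 rose by 2.95 (SE 0.26; limma adjusted p = 1.8e-05). Col14a1, a close relative of Col12a1, rose less, by 1.03 (SE 0.13), with 1.54 to 2.70 FPKM in tumours and 0.37 to 0.82 FPKM in adjacent samples. Col16a1 rose by 0.86 (SE 0.17), with 7.74 to 13.9 FPKM in tumours and 3.54 to 6.01 FPKM in adjacent samples.

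Type IX collagen is best known from cartilage, where its 3 chains decorate type II fibrils. Col9a2 was at 14.9, 2.66, 11.5, 11.4 and 8.88 FPKM in tumours 1 to 5, against 0.72, 0.81, 0.95, 0.34 and 2.61 FPKM in adjacent samples 1 to 5. Tumour 2 was only just above adjacent sample 5, the highest of the adjacent samples. Col9a2 rose by 2.31 (SE 0.39; limma adjusted p = 0.000373). Col9a3 was at 8.32, 16.5, 7.48, 17.6 and 13.5 FPKM in tumours 1 to 5, against 2.21, 2.59, 1.90, 1.54 and 4.35 FPKM in adjacent samples 1 to 5. Of the exon bases of Col9a3, 6.1% overlap Tcfl5 on the opposite strand, and the kit does not mark strand. Tumour 2, the lowest tumour in Col9a2, was the next to highest here, and Col9a3 rose by 1.94 (SE 0.26; limma adjusted p = 9.29e-05). Col9a1 was below the filter, at 0.22 to 0.54 FPKM in tumours and 0.01 to 0.03 FPKM in adjacent samples.

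Beside these cartilage-associated genes, the 8 cartilage and bone markers summed to 31.9 to 49.2 FPKM in tumours and 19.8 to 26.1 FPKM in adjacent samples. Most of that sum was Sox9, a transcription factor of cartilage and of intestinal crypts, which rose by 0.85 (SE 0.14); tumour 2 had the lowest tumour level, 30.1 FPKM. Dmp1, a bone matrix gene, rose by 1.33 (SE 0.20), with 2.37 ± 1.06 FPKM in tumours and 0.316 ± 0.250 FPKM in adjacent samples (SD, n = 5 each). The other bone markers Sp7, Bglap and Ibsp were below the filter with overlapping groups, at most 0.06, 0.65 and 0.45 FPKM in any library. Without the filter Ibsp was called higher in tumours (0.21, limma adjusted p = 0.0407), and Sp7 and Bglap did not pass. The defining cartilage markers Acan and Matn3 reached at most 0.08 and 0.01 FPKM, and Matn1 was listed at 0 in every library. Of the other FACITs, Col22a1 was at 0.39 to 0.71 FPKM in tumours and 0.04 to 0.21 FPKM in adjacent samples, and Col20a1 at 0.53 to 1.07 FPKM in tumours and 0.62 to 1.37 FPKM in adjacent samples. Col19a1 did not exceed 0.03 FPKM in any library.

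Type VI collagen rose as a whole, but its chains rose unequally. Col6a1 was at 50.8, 82.8, 40.9, 53.6 and 35.7 FPKM in tumours 1 to 5, against 28.1, 13.5, 24.5, 11.1 and 18.4 FPKM in adjacent samples 1 to 5. Tumour 2 was highest, and tumour 5 lay closest to adjacent tissue. Col6a1 rose by 1.44 (SE 0.28; limma adjusted p = 0.000895), and Col6a2, its neighbour on chromosome 10, rose by 1.40 (SE 0.27; limma adjusted p = 0.000864), with 31.5 to 71.2 FPKM in tumours and 10.9 to 24.95 FPKM in adjacent samples. Col6a3, the long chain of the trimer, was at 35.5, 36.1, 24.6, 33.2 and 22.0 FPKM in tumours 1 to 5, against 8.24, 4.23, 6.67, 3.21 and 7.74 FPKM in adjacent samples 1 to 5, and rose by 2.19 (SE 0.24; limma adjusted p = 2.99e-05).

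Col6a4, Col6a5 and Col6a6 encode alternatives to the Col6a3 chain and neighbour each other on chromosome 9. Col6a4 was at 9.94 to 14.4 FPKM in tumours and 1.11 to 3.91 FPKM in adjacent samples, and rose by 1.84 (SE 0.22). Col6a5 was below the filter, at 0.74, 2.69, 0.31, 0.63 and 0.35 FPKM in tumours 1 to 5, against 0.67, 0.30, 0.59, 0.35 and 0.44 FPKM in adjacent samples 1 to 5. Outside tumour 2 the groups had nearly the same range. Col6a6 was listed at 0 in every library. The type VI genes held 9.56% to 13.8% of collagen transcripts in tumours and 17% to 20.9% in adjacent samples, with no overlap, and this was a smaller share in tumours although the sum was higher, at 99.5 to 207 FPKM in tumours and 26.6 to 65.8 FPKM in adjacent samples.

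The collagens of the epithelial attachment zone were low but higher in most tumours. Col7a1, the chain of anchoring fibrils, was at 3.92, 1.52, 2.16, 4.42 and 3.67 FPKM in tumours 1 to 5, against 0.33, 0.42, 0.39, 0.37 and 0.66 FPKM in adjacent samples 1 to 5. The groups did not overlap, and Col7a1 rose by 1.48 (SE 0.20; limma adjusted p = 9.18e-05). Col17a1, the transmembrane collagen of hemidesmosomes, was below the filter, at 0.78, 0.27, 0.33, 2.35 and 0.53 FPKM in tumours 1 to 5, against 0.19, 0.12, 0.18, 0.12 and 0.27 FPKM in adjacent samples 1 to 5. Tumour 4 stood apart, and tumour 2 was level with adjacent sample 5. Both genes are known for stratified epithelia, and the 8 stratified squamous markers summed to 29.5 to 45.9 FPKM in tumours and 4.12 to 10.7 FPKM in adjacent samples. Of the 4 that were tested all rose, where 57.2% of all tested genes did. Krt14 rose by 2.13 (SE 0.24), Krt15 by 2.00 (SE 0.36) and Krt6a by 1.53 (SE 0.33). Krt13 rose by 1.11 (SE 0.27), but its call was lost with quantile normalization (0.62; limma adjusted p = 0.0627). Krt5 and Trp63, which define basal cells of such epithelia, were at most 0.02 and 0.03 FPKM in any library, and Sprr3 was listed at 0.

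The other membrane collagens were also low. Col23a1 was at 3.08, 3.70, 2.89, 1.63 and 3.39 FPKM in tumours 1 to 5, against 0.68, 0.26, 0.76, 0.22 and 0.74 FPKM in adjacent samples 1 to 5, and rose by 1.35 (SE 0.18; limma adjusted p = 7.31e-05). Col13a1 was at 0.96, 1.61, 1.00, 1.13 and 2.26 FPKM in tumours 1 to 5, against 0.84, 0.48, 0.86, 0.39 and 0.47 FPKM in adjacent samples 1 to 5. Tumour 1 was little above adjacent sample 3. Col13a1 rose by 0.56 (SE 0.16; limma adjusted p = 0.00941), but this call was lost with medians subtracted (0.23; limma adjusted p = 0.229) and with quantile normalization (0.22; limma adjusted p = 0.220). Col25a1, a collagen of neurons, did not exceed 0.13 FPKM.

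Both multiplexins rose. Col18a1, whose protein releases the endostatin fragment, was at 76.6, 113, 72.4, 80.9 and 68.3 FPKM in tumours 1 to 5, against 21.9, 7.95, 20.0, 6.46 and 16.5 FPKM in adjacent samples 1 to 5, and rose by 2.54 (SE 0.31; limma adjusted p = 5.95e-05). Col15a1, a gene of vessel and muscle basement membranes, was at 10.8, 19.1, 9.57, 12.9 and 16.1 FPKM in tumours 1 to 5, against 5.66, 3.87, 6.63, 2.96 and 5.10 FPKM in adjacent samples 1 to 5. Its rise of 1.33 (SE 0.21; limma adjusted p = 0.000247) was smaller than that of Col18a1, and in both genes tumour 2 was the highest library. The 8 endothelial markers summed to 54.9 to 83.6 FPKM in tumours, highest in tumour 2, and to 14.4 to 32.3 FPKM in adjacent samples. All 8 rose, by a median of 1.19 (7 of them when medians were subtracted), where 57.2% of all tested genes rose (34.5% with medians subtracted). Cdh5, an adhesion gene of vessel walls, rose by 1.87 (SE 0.18), Esam by 1.37 (SE 0.19), Vwf by 1.34 (SE 0.20) and Pecam1, the most abundant, by 1.2 (SE 0.17). Their part in the collagen levels was not tested.

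The 2 genes left, Col26a1 and Col28a1, were below the filter. Col28a1, known from peripheral nerve glia, was at 0.36, 3.66, 0.51, 0.59 and 1.44 FPKM in tumours 1 to 5, against 0.68, 0.32, 0.60, 0.33 and 0.29 FPKM in adjacent samples 1 to 5. Tumour 2 had the highest level, and tumours 1, 3 and 4 lay within the adjacent range. The glial marker Sox10 was listed at 0 in tumour 2, at 0.00 to 0.11 FPKM in the other tumours and at 0.01 to 0.05 FPKM in adjacent samples. The 8 glial and neuronal markers summed to 15.4 FPKM in tumour 2, where Ret, a receptor of enteric neurons that other cells also express, was at 10.9 FPKM; the other tumours summed to 3.06 to 7.05 FPKM and adjacent samples to 4.09 to 12.7 FPKM. Col26a1 did not exceed 0.09 FPKM in tumours and was listed at 0 in every adjacent sample.

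**Figure D4:**
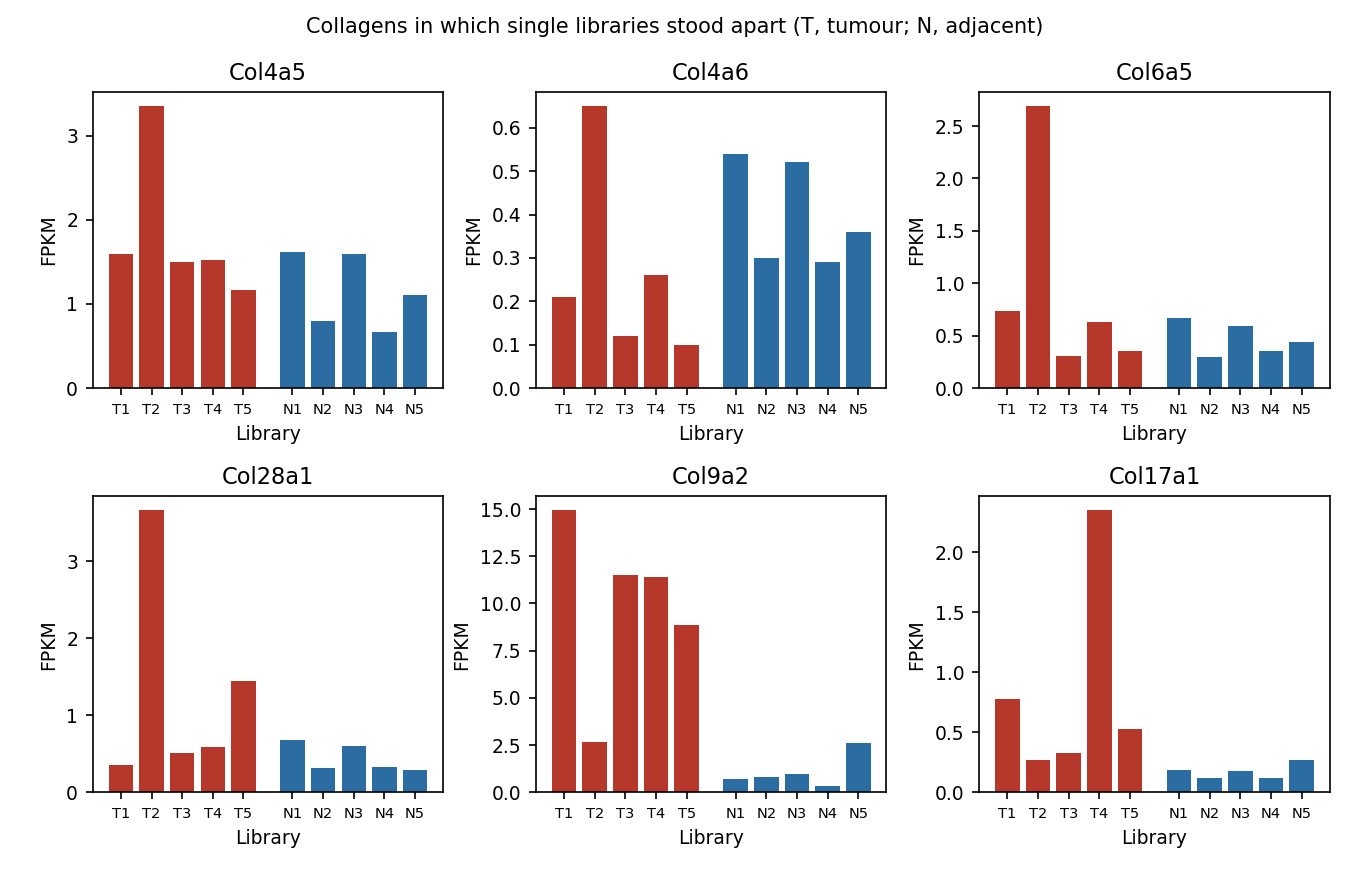
FPKM (vertical axes) of 6 collagens in each library (horizontal axes, T1 to T5 tumours and N1 to N5 adjacent samples), chosen after their values were seen. Tumour 2 is the highest library in Col4a5, Col4a6, Col6a5 and Col28a1 and the lowest tumour in Col9a2, and tumour 4 is the highest in Col17a1 at 2.35 FPKM.

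Libraries of a group did not carry the collagens evenly. Tumour 2 was the highest tumour for 14 of the 25 tested collagens, and tumour 4 for 6. Tumour 5 was the lowest tumour for 10. Among adjacent samples, adjacent sample 4 was the lowest for 23 of the 25. For these counts of single libraries no share over all tested genes was computed, so they are not shown to be particular to the collagens. Adjacent samples 2 and 4 both lay below the other 3 in 20 of the 25 (80.0%), as against 36.2% of all 13016 tested genes. The smooth muscle and pericyte markers summed to 54.4 and 48.4 FPKM in adjacent samples 2 and 4, 49.2 FPKM in adjacent sample 5, and 131 and 126 FPKM in adjacent samples 1 and 3. The sum of the 8 epithelial markers ran the other way, at 8713 and 9084 FPKM in adjacent samples 2 and 4 and 7500 to 8220 FPKM in the other 3. Of the single markers, only Krt8, Vil1 and Cldn7 were higher in both than in each of the other 3. Krt18 was highest in adjacent sample 1 (503 FPKM), Elf3 in adjacent sample 3 (406 FPKM) and Cdh1 in adjacent sample 5 (427 FPKM). How much the make-up of the samples contributes to the collagen levels was not tested. Without adjacent samples 2 and 4, an alternative chosen after seeing the data, 22 collagens rose and none fell.

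Ratios of the FPKM of 2 chains within a library do not depend on how that library was scaled. For 6 ratios the groups were compared with exact two-sided permutation tests, adjusted over the 6. The ratios given are of FPKM. The tested differences are of log2 ratios with 1 FPKM added to each gene, which changes ratios of low genes most. These differences and their p-values therefore do depend on the scaling to some degree. Col4a1 over Col4a2 was 1.47 to 1.61 in tumours and 1.43 to 1.65 in adjacent samples, a difference of 0.02 on the log2 scale (exact permutation adjusted p = 0.722). Type IV collagen of these 2 chains holds more of the Col4a1 chain, and the transcript ratio stayed within a narrow range in all 10 libraries. Col4a5 over Col4a1 was 0.00723 to 0.0212 in tumours and 0.0304 to 0.0557 in adjacent samples, with no overlap and a difference of -2.31 (exact permutation adjusted p = 0.0190).

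Among fibrillar chains, Col1a1 over Col1a2 was 1.02, 0.836, 1.28, 1.13 and 1.24 in tumours 1 to 5, against 0.741, 0.706, 0.722, 0.739 and 0.997 in adjacent samples 1 to 5. The difference was 0.47 on the log2 scale (exact permutation adjusted p = 0.0190), and tumour 2 lay below adjacent sample 5. Col3a1 over Col1a1 was 1.77, 2.27, 1.46, 1.68 and 1.52 in tumours 1 to 5, against 2.91, 3.28, 3.02, 2.87 and 1.85 in adjacent samples 1 to 5, a difference of -0.62 (exact permutation adjusted p = 0.0190). Col5a1 over Col5a2 was 0.580 to 0.793 in tumours and 0.751 to 0.930 in adjacent samples, a difference of -0.29 (exact permutation adjusted p = 0.0190). Col6a3 over Col6a1 was 0.435 to 0.699 in tumours and 0.272 to 0.421 in adjacent samples, a difference of 0.76 (exact permutation adjusted p = 0.0190). The FPKM ratios of Col6a3 over Col6a1 did not overlap between the groups, but with 1 FPKM added they did. In Col1a1 over Col1a2, Col3a1 over Col1a1, Col4a5 over Col4a1 and Col6a3 over Col6a1, adjacent sample 5 lay nearest to the tumours among the adjacent samples and tumour 2 nearest to the adjacent samples among the tumours. The smallest p that 5 against 5 samples allow is 0.00794, before adjustment. With the replicate number as a block, the 5 ratios that passed had an exact permutation adjusted p of 0.075 each, in a test that cannot go below 0.0625 before adjustment.

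**Figure D5:**
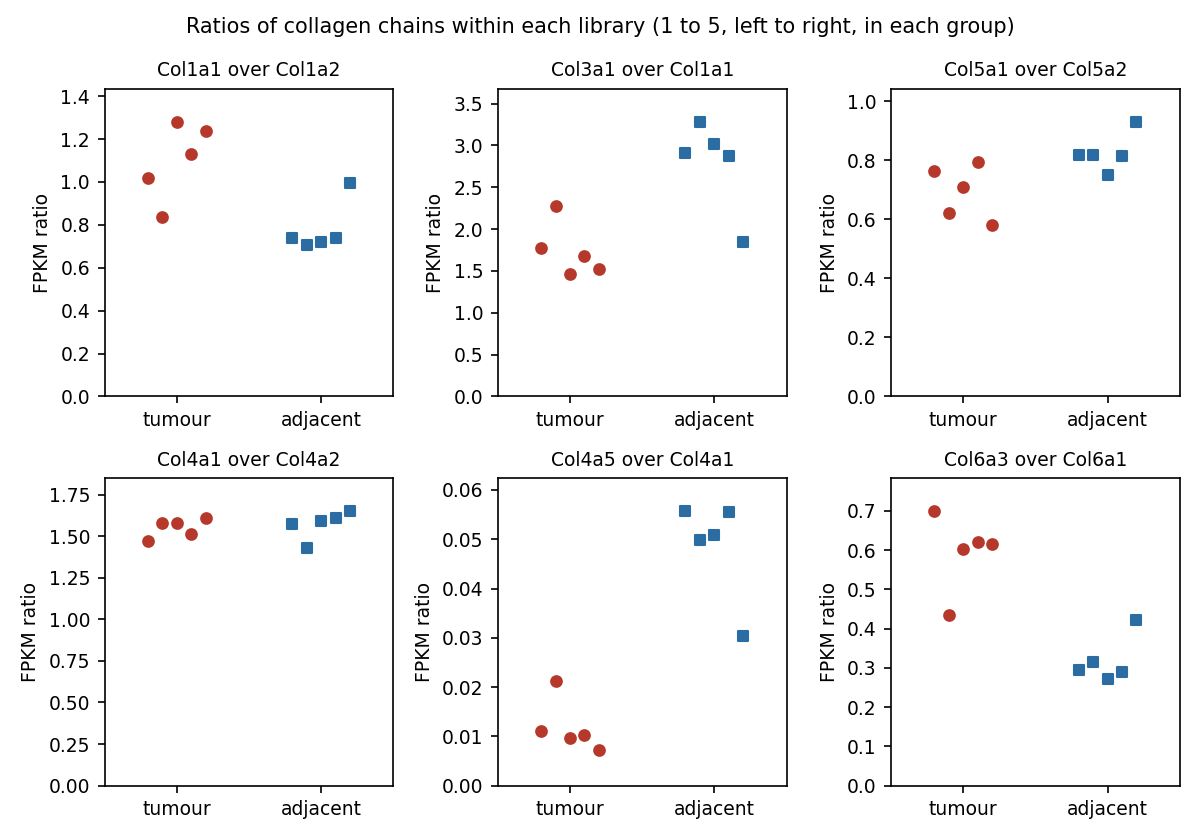
Ratio of the FPKM of 2 collagen genes (vertical axes, from 0) in each library, tumours left and adjacent samples right in each panel. The groups are separate for Col4a5 over Col4a1 and for Col6a3 over Col6a1 and overlap for Col4a1 over Col4a2, which lies between 1.43 and 1.65 throughout.

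Most genes that fold, modify, trim and cross-link collagen rose with it. Of 33 such genes 25 were tested, 22 rose and 2 fell, with a median log2 change of 1.23, and with medians subtracted 19 rose and 2 fell. Among all tested genes 57.2% rose and 19.3% fell, and with medians subtracted 34.5% rose and 33.3% fell. Lox, which starts the cross-linking of fibrils, was at 11.1, 15.3, 9.90, 13.2 and 13.4 FPKM in tumours 1 to 5, against 1.81, 0.69, 1.88, 0.38 and 1.56 FPKM in adjacent samples 1 to 5. Lox rose by 2.63 (SE 0.22; limma adjusted p = 1.4e-05), and its relative Loxl2 by 2.56 (SE 0.22). Serpinh1, the collagen chaperone HSP47, was at 80.6 to 127 FPKM in tumours and 10.4 to 30.9 FPKM in adjacent samples, and rose by 2.22 (SE 0.27). Bmp1, the proteinase that removes the C-propeptide of procollagen, rose by 2.21 (SE 0.19), and Adamts2, which removes the N-propeptide, by 1.53 (SE 0.16). Plod2, a lysyl hydroxylase, rose by 1.33 (SE 0.14), and P4ha2, a prolyl hydroxylase subunit, by 1.42 (SE 0.21). P4ha1, the more widely used subunit, did not pass, at 9.52 ± 1.70 FPKM in tumours and 8.14 ± 1.66 FPKM in adjacent samples (SD, n = 5 each).

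The most abundant gene of the list and the 2 that fell are described next. P4hb, the disulfide isomerase that is also a subunit of prolyl hydroxylase, was at 391 ± 32.2 FPKM in tumours and 326 ± 35.8 FPKM in adjacent samples (SD, n = 5 each). Its rise of 0.26 (SE 0.09; limma adjusted p = 0.0197) became -0.07 with medians subtracted. Sec23a, a coat protein of the vesicles that leave the endoplasmic reticulum, was at 10.9, 18.3, 10.6, 13.4 and 10.5 FPKM in tumours 1 to 5, against 22.6, 25.3, 21.6, 24.6 and 20.6 FPKM in adjacent samples 1 to 5. Every tumour was below every adjacent sample, and Sec23a fell by 0.83 (SE 0.14; limma adjusted p = 0.000329). Mia3, which loads bulky procollagen into such vesicles and is also known as TANGO1, was at 16.96, 31.0, 17.4, 19.4 and 21.3 FPKM in tumours 1 to 5, against 38.9, 31.0, 35.8, 30.5 and 31.1 FPKM in adjacent samples 1 to 5. Mia3 fell by 0.66 (SE 0.15; limma adjusted p = 0.00214), and tumour 2 was level with the lower adjacent samples. The 8 epithelial markers summed to 4221 to 6468 FPKM in tumours and 7500 to 9084 FPKM in adjacent samples, and their part in the fall of Sec23a and Mia3 was not tested.

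Of 25 genes whose proteins bind collagen fibrils or the type IV network, 21 were tested. Of these, 16 rose (median of the tested genes 1.52), against 57.2% of all tested genes, and none fell. The 5 that were tested and did not rise were Ogn, Aspn, Tnxb, Dpt and Matn2. Fn1, fibronectin, rose by 3.02 (SE 0.34), with 182 to 266 FPKM in tumours and 13.3 to 57.2 FPKM in adjacent samples. Sparc, a collagen chaperone of the matrix, rose by 2.55 (SE 0.29), Tnc, tenascin C, by 2.47 (SE 0.25), and Nid1, which links type IV collagen to laminin, by 2.2 (SE 0.23). The fibril-spacing proteoglycan genes Dcn and Bgn rose by 2.14 (SE 0.30) and 2.08 (SE 0.31). Dpt, dermatopontin, was at 8.59, 24.1, 8.06, 19.6 and 5.25 FPKM in tumours 1 to 5, against 12.0, 7.06, 13.6, 6.42 and 4.60 FPKM in adjacent samples 1 to 5, with overlapping groups.

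Of 10 collagen receptor genes, 8 were tested, 7 rose (median of the tested genes 0.93), against 57.2% of all tested genes, and none fell. With medians subtracted 7 rose, where 34.5% of all genes did, and with quantile normalization 5 rose. Mrc2, an endocytic receptor for collagen fragments, rose by 1.82 (SE 0.21), the integrin gene Itga1 by 1.49 (SE 0.12) and the receptor kinase gene Ddr2 by 1.08 (SE 0.25; limma adjusted p = 0.00232). The Ddr2 call sat at the threshold with quantile normalization (0.61; limma adjusted p = 0.05). Itgb1, the shared beta chain of the collagen integrins and the most abundant of the list, rose by 0.89 (SE 0.10). Itga2, the integrin subunit of epithelium and platelets, did not pass, at 11.1 ± 3.86 FPKM in tumours and 9.23 ± 1.41 FPKM in adjacent samples (SD, n = 5 each). Gp6, the platelet receptor, was below the filter and listed at 0 in tumours 1, 2, 3 and 5 and at 0.16 FPKM in tumour 4, against 0.19 to 0.48 FPKM in adjacent samples.

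Markers of cell types were counted in the same fit, where 57.2% of all tested genes rose. Of 10 fibroblast markers 9 were tested, 7 rose and 1 fell, with a median of 1.75, and their sum was 577 to 730 FPKM in tumours and 214 to 298 FPKM in adjacent samples. Dpt, described above, is also on this list. Vim, vimentin, rose by 2.43 (SE 0.25), Thy1 by 2.01 (SE 0.18) and Pdgfra by 1.97 (SE 0.26). Gsn, gelsolin, which epithelium also expresses, fell by 0.92 (SE 0.12). Vim and Gsn together made up most of the sum of the fibroblast markers in every library. Vim averaged 445.1 FPKM in tumours and 86.25 FPKM in adjacent samples, and Gsn 74.85 and 141.4 FPKM. The sum is therefore not a measure of fibroblasts alone. Fap, a protease of activated fibroblasts, was below the filter, at 0.23 to 0.69 FPKM in tumours and 0.91 to 1.18 FPKM in adjacent samples. Of 8 smooth muscle and pericyte markers 5 rose (median of all 8, 0.91) and none fell, with a sum of 151 to 237 FPKM in tumours and 48.4 to 131 FPKM in adjacent samples. The 5 of 8 are near the share of all tested genes that rose, 57.2%, and with medians subtracted 4 of 8 rose, where 34.5% of all genes did. Acta2 rose by 1.74 (SE 0.27), Rgs5 by 1.58 (SE 0.26) and Actg2 by 1.51 (SE 0.35), while Myh11 (limma adjusted p = 0.122), Des (0.444) and Cnn1 (0.316) did not pass. Of 8 leukocyte markers 6 rose and 1 fell (5 and 1 with medians subtracted), with sums of 457 to 774 FPKM in tumours and 76.3 to 234 FPKM in adjacent samples. Most of each sum was Lyz2, at 379 to 652 FPKM in tumours and 57.7 to 177 FPKM in adjacent samples. Cd3e did not pass (0.15; limma adjusted p = 0.621). Lyz2, Itgam and Csf1r of myeloid cells rose by 2.07 (SE 0.33), 1.87 (SE 0.21) and 1.64 (SE 0.31), and Cd79a of B cells fell by 1.25 (SE 0.48; limma adjusted p = 0.0357), a call lost in 7 of 10 fits that left out 1 library.

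Of the 8 epithelial markers 7 fell, where 19.3% of all tested genes did. Among these markers Krt8 fell by 1.07 (SE 0.20) and Vil1 by 1.02 (SE 0.17). Krt18 rose by 0.36 (SE 0.10), which was 0.02 with medians subtracted. Of the glial and neuronal markers 2 were tested and neither passed. The part of the mix of cell types in the rise of the collagens was not tested.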

How the data were processed

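RNA of 5 tumours and 5 adjacent samples was measured. Libraries were made from poly-A RNA with an Illumina TruSeq kit, per the labels' protocols. The authors deposited 1 table of FPKM, with 24525 genes and 1 further line of text, which was left out. The submitters' processing notes name, for mm10, DESeq2 1.14.1, edgeR 3.16.5, GATK, Salmon 0.8.2, Cufflinks 2.2.1, TopHat2 2.1.0 and RSEM 1.2.15, without saying which made the table. FPKM depends on what other genes take of a library, and the kit does not mark strand. Of the collagens, Col4a3 and Col9a3 share over 5% of their exon bases with an opposite-strand gene (5.6% and 6.1%, GENCODE M21).

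Libraries totalled 462009 to 484712 FPKM, with 11981 to 13171 genes at 1 FPKM or more. Depth is not stated. Low values are multiples of what 1 fragment is worth, and the commonest ratio of such values in 37 of 45 library pairs gave depths of 0.952 to 1.10 times their median. The remaining pairs were left out because their ratios disagreed with the fitted depths. No counting interval was computed. At least 17741 genes differed between any 2 libraries.

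Differences between groups were estimated on log2(FPKM + 1) with limma 3.58.1 (R 4.3.3). The model held the group alone, its empirical Bayes step was robust and allowed a trend with expression, and genes averaging under 1 FPKM were left out. The pseudocount of 1 understates changes of low genes. All p-values are two-sided, adjusted by Benjamini-Hochberg over the 13016 genes, or over the 6 ratios. The fit was tested on simulated data. Ratios used the same pseudocount in the test, and printed ratios are of FPKM. Named genes are, per class, the 3 most abundant collagens and the largest changes, every collagen that missed the test, and, per list, the 3 largest rises, the 2 largest falls and the most abundant gene; a few others were chosen after their values were seen. The members and gene lists were chosen with earlier results of these data known. Coordinates are RefSeq's on GRCm38.p6, the assembly of mm10. Alternatives were pseudocounts of 0.1 and 5, no filter, medians subtracted, quantile normalization, a replicate block, and leaving out libraries.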

Additional observations from a re-analysis of the deposited data

Results flagged for a closer look

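The collagens and the genes picked from each list by the naming rule above were searched for single libraries that stood apart. In 145 groups of 5 libraries with a mean of at least 0.1 FPKM, 16 (11.0%) had a library whose gap to the nearest other exceeded 0.71 of the range of its group. For 5 independent values of a normal distribution this happens in about 1 in 20. FPKM need not be normally distributed, and genes of 1 library can move together. The 11.0% is therefore not a test against that rate. Among the collagens, tumour 2 stood apart in Col4a5 at 3.35 FPKM (other tumours 1.17 to 1.59), in Col6a5 at 2.69 FPKM (0.31 to 0.74) and in Col18a1 at 113 FPKM (68.3 to 80.9). Tumour 4 stood apart in Col17a1 at 2.35 FPKM (0.27 to 0.78). Adjacent sample 5 stood apart in Col9a2 at 2.61 FPKM (other adjacent samples 0.34 to 0.95) and in Col7a1 at 0.66 FPKM (0.33 to 0.42).

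Among the genes picked from the lists by the rule, tumour 2 stood apart in Thy1 at 21.2 FPKM, in Ret at 10.9 FPKM, in Vil1 at 223 FPKM, in Csf1r at 47.0 FPKM and in Cd79a at 6.70 FPKM. Tumour 5 stood apart in Tnc at 49.8 FPKM and in Itgam at 13.2 FPKM. Adjacent sample 5 stood apart in Ret at 5.94 FPKM and in Dmp1 at 0.76 FPKM, and adjacent sample 3 in Cd79a at 17.6 FPKM. Other genes named in the text were not part of this search. Some of them also had such a library, as Aspn and Cd3e in tumour 2 (11.9 and 4.09 FPKM) and Krt13 in tumour 4 (12.9 FPKM).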

How the results depend on the processing

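The counts of collagens risen (22 to 29) and fallen (0) and of genes risen in the 4 lists stayed within 1.5 times under every alternative. Leaving out 1 library gave 23 risen collagens each time, 21 to 22 synthesis genes, 16 to 17 fibril partners, 7 receptors and 7 fibroblast markers. The labels leave the pairing of like-numbered libraries unsettled. The correlations of their deviations were 0.023, 0.321, 0.022, 0.161 and 0.422, of which 3 are over 0.1, and 4 of 10 libraries correlated best with their own number. With the replicate block the fit still called 23 collagens. For the ratios an exact sign-flip over 5 pairs cannot go below 0.0625, and with the replicate block the differences of Col1a1 over Col1a2 (0.47), Col3a1 over Col1a1 (-0.62), Col5a1 over Col5a2 (-0.29), Col4a5 over Col4a1 (-2.31) and Col6a3 over Col6a1 (0.76) had an exact permutation adjusted p of 0.075 each. The log2 ratio Col4a1 over Col4a2 differed by -0.01 with a pseudocount of 0.1, 0.10 with 5 (exact permutation adjusted p = 0.0476), where the pseudocount itself compresses the ratio in low libraries, and -0.02 to 0.04 when 1 library was left out.

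Signs turned in genes that had not passed or had barely passed. Col4a5 was -0.07 with quantile normalization, Col8a1 -0.14 with medians subtracted and -0.27 with quantile normalization, and P4hb -0.07 with medians subtracted. Ret was 0.04 in the fit reported and -0.07 with a pseudocount of 0.1, -0.29 with medians subtracted, -0.38 with quantile normalization, -0.55 without tumours 2 and 4, -0.31 without adjacent samples 2 and 4, and -0.39 to 0.36 when 1 library was left out. Calls of single genes were lost for Col13a1 with medians subtracted, with quantile normalization and without adjacent samples 2 and 4 (0.45; limma adjusted p = 0.0695), for P4hb without adjacent sample 4 (limma adjusted p = 0.0501), without tumours 2 and 4 (0.0666) and without adjacent samples 2 and 4 (0.138), for Krt18 with medians subtracted (0.843), for Ddr2 and Krt13 with quantile normalization, and for Cd79a with a pseudocount of 5 (0.0548), without adjacent samples 2 and 4 (0.0637) and in 7 of 10 fits without 1 library (0.0544 to 0.0834). These calls are limited to genes named in the text. Other listed genes counted as risen also lost theirs, Ppib with medians subtracted (limma adjusted p = 0.96) among them. Fkbp14 (0.0612 and 0.513), Ptprc (0.107 and 0.163) and Tek (0.0743 and 0.188) lost theirs with medians subtracted and with quantile normalization. The cause of these losses was not tested. Levels near 0.01 FPKM are limited by the rounding of the table.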
